A study of Equisetum hyemale and Pteris vittata and Marchantia polymorpha with 22 samples.

Results

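Stearoyl-acyl carrier protein (ACP) desaturases were followed through the hypoxia transcriptomes of 5 land plants, where they made up 35 of the 180885 features in the deposited tables. Members were all features whose *Arabidopsis thaliana* best hit, as the tables name it, is AT2G43710 (*SSI2/FAB2*), AT3G02630, AT3G02610, AT3G02620, AT5G16240, AT5G16230 or AT1G43800 (*SAD6*). A feature is a transcript in *Marchantia polymorpha* (liverwort), a locus in *Physcomitrium patens* (moss) and *Selaginella moellendorffii* (lycophyte), an assembled gene in *Equisetum hyemale* (horsetail) and an assembled transcript in *Pteris vittata* (fern). A best hit names the closest *A. thaliana* protein and does not establish orthology, and a feature without a best hit could not be counted. The family was chosen by its values in these libraries, since features with best hit AT3G02630 had been seen more than 1 log2 unit higher under hypoxia in every species but the moss. The difference between hypoxia and air is therefore a description for the family: no p-value is given for a member, and the number of members that pass a threshold stands beside the share of all features that do and is not used as evidence.

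Stearoyl-ACP desaturases are soluble plastid enzymes that place the first double bond into a saturated acyl chain, converting stearoyl-ACP into oleoyl-ACP. The reaction uses molecular oxygen and electrons from reduced ferredoxin, and its product feeds the unsaturated lipids of plastid and other membranes. In *A. thaliana* SSI2/FAB2 provides most of this activity in leaves, and *SAD6* is known as a gene induced by low oxygen.

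The 22 mRNA libraries came from plants aged 13 days that spent 8 h in darkness at 21% O2 (air) or 1% O2 (hypoxia), with 3 air and 3 hypoxia libraries in *E. hyemale* and 2 of each in the other species. Every library was made from 3 thalli of *M. polymorpha* (accession Cam-2, raised from gemmae), 3 plantlets of *P. patens*, or 3 shoots of the other species. No mutant or transgenic material is named for these libraries, and the air and hypoxia groups of a species shared age and darkness and differed in oxygen. *E. hyemale* was raised in soil and its RNA was extracted with another kit than that of the other species, which were grown on agar medium or, in *P. patens*, Knop medium. The series description speaks of sporophytes for *M. polymorpha*, whereas the methods name thalli.

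Expression is given as CPM (read counts scaled to a common library size), which the authors scaled by TMM factors and which is not corrected for transcript length. Tables were normalized separately, so levels are compared within a species only. The log2FC is the mean of log2(CPM + 1) under hypoxia minus that in air, which understates the change of features near or below 1 CPM. Depth, estimated from the step that 1 read makes, was 16.3 to 28.7 M reads per library, and 1 read stood for 0.0348 to 0.0615 CPM. Summed CPM of green tissue markers (Rubisco small subunits and light-harvesting proteins) was at least 2415 in every library of the labelled green tissues. As a check of the treatment, sucrose synthases, pyruvate decarboxylases and alcohol dehydrogenase were summed, as far as they occurred as best hits. Of the 6 genes of this check, 2, 2, 3, 5 and 3 did so from liverwort to fern. In 4 of the 5 species the sum was higher in every hypoxia library than in any air library. The liverwort sum held a sucrose synthase (log2FC 1.05) and an alcohol dehydrogenase whose libraries were lower under hypoxia (log2FC -0.16). The moss sum held sucrose synthases and pyruvate decarboxylases only. In the fern *P. vittata* the sum was 639 and 742 CPM in air and 672 and 699 CPM under hypoxia, and did not separate the conditions. In *S. moellendorffii*, air replicate 3 stood at 1978 CPM of these genes, against 619 CPM in the other air library and 5126 and 6085 CPM under hypoxia. That other air library carries a replicate number that no air label has, and is called the unnumbered air library.

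The family had 3 features in the liverwort, 7 in the moss, 12 in the lycophyte and 8 in the horsetail, and in the fern 5 transcripts of 3 Trinity genes. AT3G02630 was the best hit of 21 features and occurred in all 5 species. AT2G43710 was the best hit of 6 features, 5 of them in *P. patens* and 1 in *S. moellendorffii*. AT5G16240 accounted for 6 features in the liverwort, the horsetail and the fern, and AT3G02610 and AT5G16230 for 1 *S. moellendorffii* feature each. No feature of any table had AT3G02620 or *SAD6* (AT1G43800) as its best hit. A mean of at least 5 CPM was reached by 23 features, and 5 stayed below 1 CPM. The authors had removed loci without a library above 20 reads, and no further filter was set on the family.

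In *M. polymorpha*, a transcript that held most of the family's reads in air was higher still under hypoxia. Mapoly0246s0004.1 (best hit AT3G02630) stood at 411 and 378 CPM in air and at 855 and 865 CPM under hypoxia, a log2FC of 1.12 and a 2.18-fold difference of the means. Mapoly0024s0114.1, with the same best hit, had 24.9 and 22.6 CPM in air against 45.3 and 42.0 CPM under hypoxia, a log2FC of 0.85. Mapoly0040s0101.1 (best hit AT5G16240) had 8.29 and 7.16 CPM in air and 8.11 and 8.60 CPM under hypoxia, a log2FC of 0.10. Air and hypoxia libraries thus stood apart for both AT3G02630 transcripts and overlapped for the AT5G16240 transcript. In such libraries of whole tissue, a change in the share of a cell type and a change in RNA per cell cannot be told apart. With limma at an FDR of 0.01 and a log2FC above 1, 1 of 3 members was called higher and 0 lower, where 1.47% of all transcripts were called higher and 1.35% lower. Mapoly0246s0004.1 was the called transcript, and it was not called without air replicate 1 or without air replicate 2, with a log2FC of 1.06 to 1.18 whichever library was left out.

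In *P. patens* the locus that stood more than 1 log2 unit higher was an AT2G43710 (*SSI2/FAB2*) hit and not the most expressed one in air. Pp3c4_9110 had 47.5 and 47.3 CPM in air and 123 and 106 CPM under hypoxia, a log2FC of 1.25 and a 2.41-fold difference of the means. Pp3c12_16620 (best hit AT3G02630), which held the largest share of the reads in air, had 89.2 and 89.5 CPM in air and 90.3 and 97.9 CPM under hypoxia, a log2FC of 0.07. The air libraries of both loci lay below the hypoxia libraries, by a wide margin in the former and by under 1 CPM in the latter. Among the other AT2G43710 loci, Pp3c3_28120 had 19.4 and 20.2 CPM in air and 21.5 and 23.2 CPM under hypoxia (log2FC 0.17). Pp3c10_18380 had 17.8 and 18.0 against 17.8 and 16.2 CPM (log2FC -0.07), and Pp3c12_3090 had 10.1 and 8.06 against 8.14 and 11.1 CPM (log2FC 0.07). The last pair overlapped between conditions, and no locus of the moss but Pp3c4_9110 differed by more than 1 log2 unit. The weakly expressed Pp3c4_21920 (best hit AT3G02630) had 1.48 and 1.39 CPM in air and 1.98 and 2.42 CPM under hypoxia (log2FC 0.39). Pp3c13_5460 (best hit AT2G43710), singled out after its values were seen, was the only feature of the family whose hypoxia libraries all lay below its air libraries, at 0.672 and 0.928 CPM in air and 0.485 and 0.569 CPM under hypoxia. With limma, 1 of 7 members was called higher and 0 lower, against 0.07% and 0.014% of all loci. The called locus was Pp3c4_9110, which was not called once any library was left out, with a log2FC of 1.15 to 1.35 in those fits. At the same time the summed green tissue markers of the moss were 8473 and 8962 CPM in air and 6892 and 7574 CPM under hypoxia. In *S. moellendorffii* they were also lower, at 2641 and 2782 CPM in air against 2415 and 2576 CPM under hypoxia. In *E. hyemale* they were 4186 to 4424 CPM in air and 3384 to 3994 CPM under hypoxia. Liverwort and fern libraries overlapped. The part this plays in the family's values was not tested in any species.

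*S. moellendorffii* had the most features, and 3 of the 12 stood more than 1 log2 unit higher, all with best hit AT3G02630. Locus 231587 had 90.4 CPM in the unnumbered air library, 161 CPM in air replicate 3, and 404 and 344 CPM under hypoxia, a log2FC of 1.62. Locus 418317 had 11.0 and 19.7 CPM in the same air libraries and 50.9 and 43.4 CPM under hypoxia, a log2FC of 1.61. Locus 411153 had 2.10 and 4.93 CPM in air and 12.3 and 10.3 CPM under hypoxia, a log2FC of 1.51. For each of these 3 loci the air libraries lay below the hypoxia libraries, and air replicate 3 lay above the other air library, the order in which these libraries stood for the treatment check genes. Leaving out 1 library moved the log2FC between 1.21 and 2.03 for 231587, between 1.22 and 2.00 for 418317 and between 1.05 and 1.98 for 411153, with the upper value in each case without air replicate 3.

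The *S. moellendorffii* locus with the highest level in air did not separate the conditions. Locus 272030 (best hit AT3G02630) had 279 and 301 CPM in air and 277 and 344 CPM under hypoxia (log2FC 0.09). Locus 411132, with the same best hit, had 32.9 and 31.9 against 36.0 and 31.4 CPM (log2FC 0.05), and 82227 (best hit AT5G16230) had 10.3 and 10.2 against 8.57 and 11.2 CPM (log2FC -0.06). Air and hypoxia libraries overlapped for all of these. The lowest log2FC of a locus above 1 CPM was -0.15 in 418316, at 1.75 and 1.10 CPM in air and 1.24 and 1.09 CPM under hypoxia. The remaining 5 loci had mean levels of 0.504 to 2.52 CPM and log2FC values of 0.34 to 0.73, and their libraries did not overlap. Of these, 108612 was listed at 0 CPM in the unnumbered air library, where 3 reads would stand at 0.185 CPM. Among them was the only AT2G43710 hit outside the moss, 418337, at 1.04 and 1.48 CPM in air and 2.56 and 2.89 CPM under hypoxia. Limma called 0 of 12 members and 0% of all loci in either direction. At an unadjusted p under 0.05 and a log2FC above 1, 3 members were higher and 0 lower, beside 1.14% and 0.0178% of all loci. Without air replicate 3 limma called 3 members higher, in a fit that gives the lone remaining air library the spread of the hypoxia libraries.

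In *E. hyemale* a pair of assembled genes from 1 Trinity cluster stood more than 1 log2 unit higher. Ehym_DN105963_c0_g3 (best hit AT3G02630) had 7.38, 8.62 and 6.55 CPM in air and 37.6, 33.2 and 41.3 CPM under hypoxia, a log2FC of 2.17 and a 4.97-fold difference of the means. Ehym_DN105963_c0_g4, with the same best hit, had 14.4, 13.6 and 13.2 CPM in air and 41.6, 47.0 and 54.0 CPM under hypoxia, a log2FC of 1.71 and a 3.46-fold difference. In both genes every hypoxia library lay at more than 2 times the highest air library. Ehym_DN109118_c6_g4 (best hit AT5G16240), which held most of the family's reads, had 199.7, 202 and 200.0 CPM in air and 220.1, 225 and 203 CPM under hypoxia (log2FC 0.10). Ehym_DN110001_c0_g1 (best hit AT3G02630) had 86.5, 81.3 and 88.5 CPM in air and 87.5, 91.4 and 77.2 CPM under hypoxia (log2FC -0.0046). Ehym_DN110001_c0_g2 (best hit AT5G16240) had 19.0, 19.5 and 20.7 CPM in air and 22.4, 26.3 and 20.3 CPM under hypoxia (log2FC 0.21). Of the 3, only Ehym_DN109118_c6_g4 had air and hypoxia libraries that did not overlap, by less than 1 CPM. The lowest log2FC belonged to Ehym_DN99369_c0_g2, at 4.62, 4.28 and 2.69 CPM in air and 2.58, 2.75 and 2.59 CPM under hypoxia (log2FC -0.40), with overlapping libraries. The other genes of the family were Ehym_DN87714_c0_g1 (log2FC 0.31) and Ehym_DN99369_c0_g1 (log2FC -0.37), with means of 4.67 and 0.945 CPM. Limma called 2 of 8 members higher and 0 lower, against 0.673% and 0.0452% of all genes. These were the genes of the DN105963 cluster, and both were called in every fit that left out a library, with log2FC values of 2.09 to 2.27 and 1.62 to 1.80. The best hits of the family in this species had E-values of 1.57E-125 to 1.87E-86.

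In *P. vittata* the Trinity gene TRINITY_DN32179_c0_g1, assembled as 1 transcript with best hit AT3G02630, had 43.8 and 12.9 CPM in air and 178 and 126 CPM under hypoxia. Its log2FC of 2.60 was the highest of the family, and its air libraries differed from each other by more than 3 times. The Trinity gene TRINITY_DN30929_c0_g1, whose 3 transcripts all belonged to the family, had a sum of 103 and 91.5 CPM in air and 174 and 153 CPM under hypoxia, a log2FC of 0.74. Its main transcript, TRINITY_DN30929_c0_g1_i1 (best hit AT3G02630), had 87.0 and 83.8 CPM in air and 139.8 and 122 CPM under hypoxia (log2FC 0.61). The transcripts TRINITY_DN30929_c0_g1_i5 and TRINITY_DN30929_c0_g1_i3, both with best hit AT5G16240, went from 11.6 and 4.66 to 28.9 and 23.9 CPM and from 4.69 and 3.03 to 5.36 and 6.76 CPM. For these 4 transcripts the hypoxia libraries lay above the air libraries. TRINITY_DN27905_c0_g1 (best hit AT5G16240) had 8.43 and 15.6 CPM in air and 11.5 and 9.64 CPM under hypoxia, and overlapped (log2FC -0.12). Leaving out 1 library moved the log2FC of TRINITY_DN32179_c0_g1_i1 between 1.75 and 3.45 and that of TRINITY_DN30929_c0_g1_i5 between 1.11 and 2.27, with the lower value of each without air replicate 3 and the upper without air replicate 1. Limma called 0 of 5 members and 0% of all transcripts in either direction, and 0 members after the transcripts of each Trinity gene were summed. At an unadjusted p under 0.05 and a log2FC above 1, 2 members were higher and 0 lower, beside 2.44% and 1.19% of all transcripts. E-values ranged from 4e-151 to 4e-82.

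**Figure D1:**
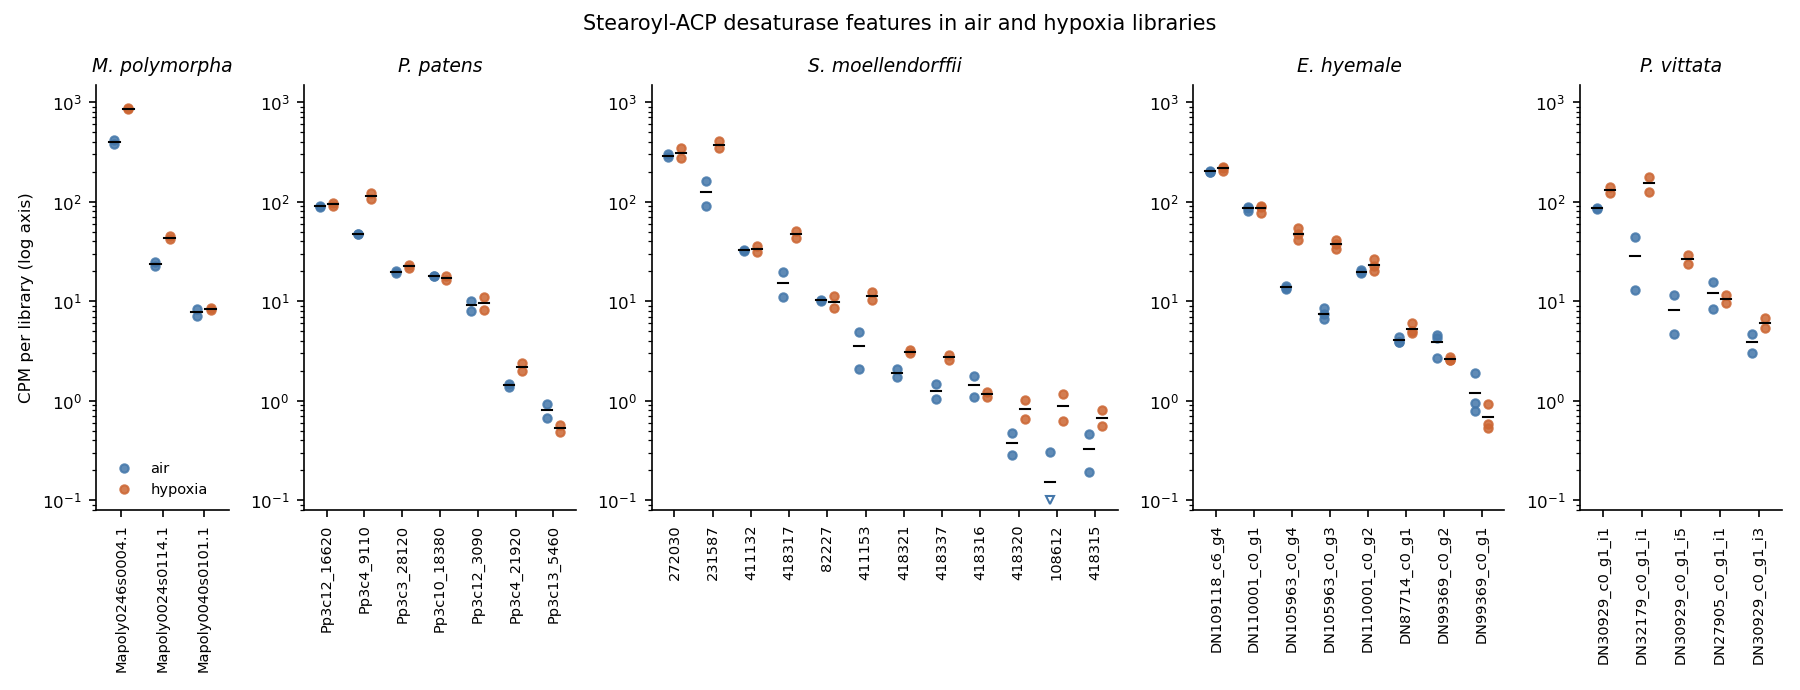
CPM on a log axis of each of the 35 features in each air library (blue) and hypoxia library (orange), ordered within a species by mean level, with black bars at the means and an open triangle for the 1 library listed at 0 CPM. Orange points stand clear of blue ones for Mapoly0246s0004.1, Pp3c4_9110, 231587, 418317, 411153, both DN105963 genes and DN32179_c0_g1_i1, and lie among them for 272030 and DN110001_c0_g1.

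Across the 35 features, 22 had hypoxia libraries that all lay above the air libraries, 1 had hypoxia libraries that all lay below, and 12 overlapped. In the order liverwort, moss, lycophyte, horsetail and fern, the higher features were 2 of 3, 4 of 7, 8 of 12, 4 of 8 and 4 of 5, where 30.1%, 20.5%, 26%, 9.66% and 21.6% of all features stood apart in that direction at any size of difference. The lower features were 0, 1, 0, 0 and 0, where 30.4%, 20.9%, 23.5%, 9.38% and 20.9% of all features stood apart that way. With a log2FC above 1 as well, the counts were 1, 1, 3, 2 and 2 features higher, or 9 in all, where 1.67%, 0.336%, 1.21%, 1.33% and 2.83% of all features met both conditions. No member was lower by more than 1 log2 unit with libraries apart, against 1.68%, 0.0979%, 0.0237%, 0.333% and 1.54% of all features. Because the family was taken up for its response in this contrast, these counts describe it and are not evidence that it responds more than other genes. The median log2FC of the members was 0.85, 0.07, 0.45, 0.15 and 0.61 in the same order, while that of all features lay between -0.0014 and 0.0029 in every species. Among the 9 features above 1 log2 unit, 7 had AT3G02630 as best hit, 1 had AT2G43710 and 1 had AT5G16240.

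**Figure D2:**
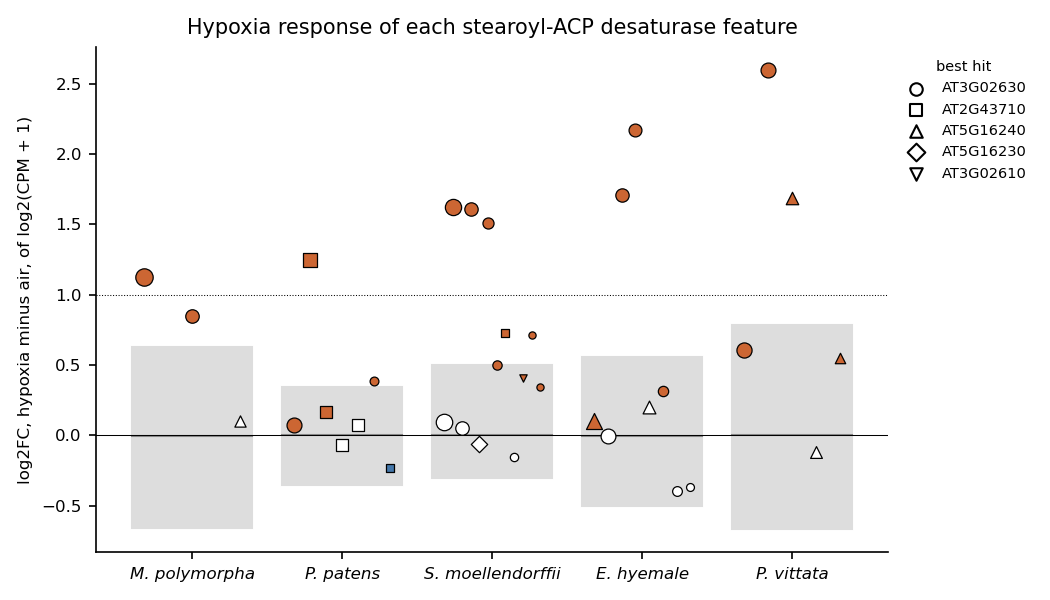
The log2FC of each feature by species, from the most to the least expressed from left to right, with symbol shape for the best hit, symbol size for mean CPM, orange fill where all hypoxia libraries lay above the air libraries and blue where all lay below. Grey boxes span the 5th to 95th percentile of all features of the species, such as -0.35 to 0.35 in *P. patens*, and the dotted line marks a log2FC of 1.

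Summed over the family, CPM were higher in every hypoxia library than in any air library of the same species. In *M. polymorpha* the sum was 426 ± 25.6 CPM in air and 912 ± 5.21 CPM under hypoxia (SD, n = 2), a 2.14-fold difference. In *P. vittata* it was 138 ± 25.2 and 326 ± 53.2 CPM (SD, n = 2), or 2.37-fold, and in *S. moellendorffii* 482 ± 73.1 and 796 ± 2.63 CPM (SD, n = 2), or 1.65-fold. The differences were smaller in *P. patens*, with 185.8 ± 0.477 and 260.2 ± 3.62 CPM (SD, n = 2, 1.40-fold), and in *E. hyemale*, with 336 ± 1.51 and 418 ± 13.2 CPM (SD, n = 3, 1.24-fold). From liverwort to fern, the log2FC of the sum was 1.10, 0.48, 0.73, 0.31 and 1.24. In *S. moellendorffii* the unnumbered air library had 431 CPM and air replicate 3 had 534 CPM. Features with best hit AT3G02630 had a summed log2FC of 1.11, 0.08, 0.74, 0.62 and 1.31 in the same order of species. The AT2G43710 loci of *P. patens* summed to 95.4 and 94.5 CPM in air and 171 and 157 CPM under hypoxia (log2FC 0.78). The summed AT5G16240 features had a log2FC of 0.10 in the liverwort, 0.11 in the horsetail and 0.81 in the fern, with overlapping libraries in the liverwort alone. Whether the response differed between species was not tested.

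The make-up of the family's reads was much the same in both conditions in *M. polymorpha*, where Mapoly0246s0004.1 held 92.6% in air and 94.3% under hypoxia, and differed more in the other species. In *P. patens*, Pp3c12_16620 held 48.1 ± 0.241% of the summed CPM in air and 36.2 ± 2.58% under hypoxia, and Pp3c4_9110 held 25.5% and 43.9 ± 3.84% (SD, n = 2). In *S. moellendorffii*, 272030 held 60.5 ± 5.97% in air and 39.0 ± 6.15% under hypoxia, and 231587 held 25.5 ± 6.43% and 47.0 ± 5.15% (SD, n = 2). In *P. vittata*, TRINITY_DN30929_c0_g1_i1 held 62.9 ± 9.86% and 40.4 ± 2.70%, and TRINITY_DN32179_c0_g1_i1 held 19.4 ± 12.3% and 46.4 ± 3.69% (SD, n = 2). On the mean of the libraries, the leading feature in air came after the other one under hypoxia in these 3 species. The ranges of the shares did not overlap between conditions. In *P. vittata* this order holds for transcripts. Summed over its 3 transcripts, TRINITY_DN30929_c0_g1 had 174 and 153 CPM under hypoxia, against 178 and 126 CPM for TRINITY_DN32179_c0_g1. Neither of these genes led in both hypoxia libraries. Locus 272030 and locus 231587 were level in 1 hypoxia library of *S. moellendorffii*, at 43.4 and 43.3%. In *E. hyemale*, Ehym_DN109118_c6_g4 stayed in the lead with 59.7 ± 0.694% in air and 51.7 ± 1.39% under hypoxia, while Ehym_DN105963_c0_g3 went from 2.24% to 8.97% and Ehym_DN105963_c0_g4 from 4.09% to 11.4% (n = 3). Since CPM are not corrected for length, these shares are shares of reads and not of transcripts.

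**Figure D3:**
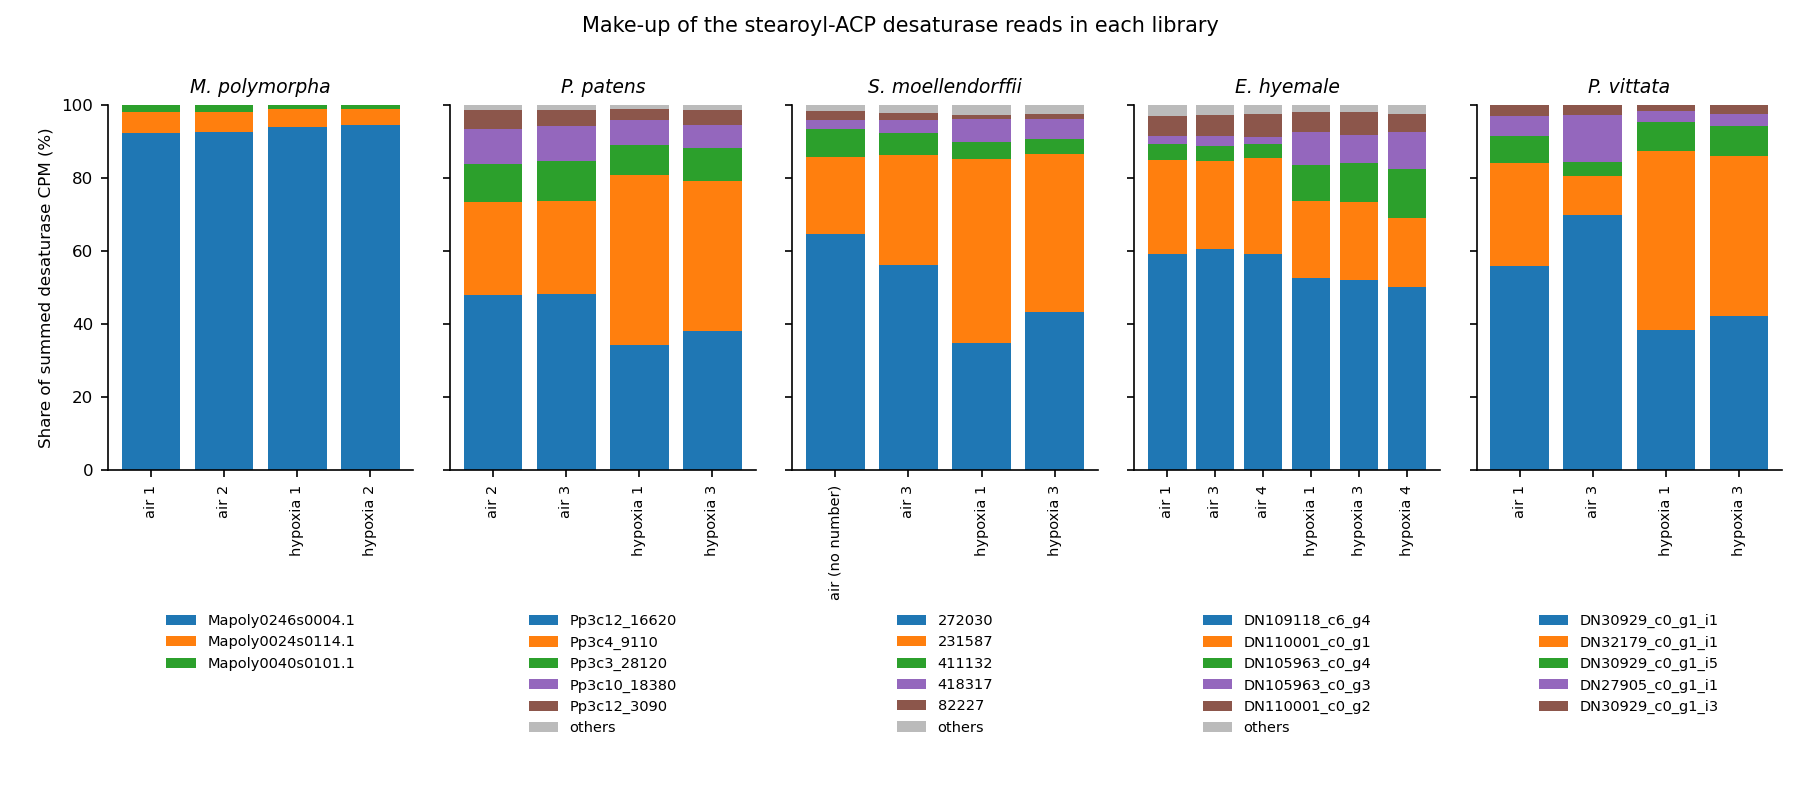
Share of the family's summed CPM (%) held by each feature in every library, stacked to 100% with the most expressed feature at the bottom and features beyond the fifth in grey. The orange segment of the *P. patens*, *S. moellendorffii* and *P. vittata* hypoxia libraries (Pp3c4_9110, 231587 and DN32179_c0_g1_i1) is larger than in their air libraries, and in *E. hyemale* the green and purple segments of the DN105963 genes are.

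Some features kept a nearly fixed ratio to each other, a comparison chosen after the values were seen, and pseudo-alignment can split reads between close copies. In *S. moellendorffii*, 418317 had 12.1 and 12.2% of the CPM of 231587 in air and 12.6 and 12.6% under hypoxia, although the CPM of 231587 varied more than 4 times between libraries. Locus 411153 had 2.33 and 3.07% of it in air and 3.04 and 2.99% under hypoxia. Whether these 3 loci share reads was not tested. The counts of members include each of them as a feature, and not as a separate observation. In the hypoxia libraries the ratio of 411132 to 272030 was 13.02 and 9.11%, against 11.8 and 10.6% in the air libraries. In *E. hyemale*, Ehym_DN105963_c0_g3 had 51.4, 63.2 and 49.5% of the CPM of Ehym_DN105963_c0_g4 in air and 90.6, 70.6 and 76.5% under hypoxia, so their ratio was not fixed. Sequences of the features were not analysed here, and their identity to each other was not measured.

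A further question was whether the genes around the desaturase step differed alike. Lists of 48 *A. thaliana* genes in 8 groups covered the supply of acetyl-CoA, acetyl-CoA carboxylase, fatty acid synthase, acyl carrier proteins, the electron donors ferredoxin and ferredoxin-NADP reductase, the enzymes that use stearoyl-ACP or its product, the membrane desaturases and the WRINKLED regulators. With limma over all features, 2 of 39 list features were called higher in *M. polymorpha* and 1 of 83 in *P. patens*, where 1.47% and 0.07% of all features were, and 0 were called lower in either, against 1.35% and 0.014%. In the lycophyte, the horsetail and the fern limma called 0 of 53, 0 of 84 and 0 of 125 in either direction. Among all features of these species, 0%, 0.673% and 0% were called higher and 0%, 0.0452% and 0% lower. Where limma called no feature of a species at all, a count of 0 does not describe the lists. At an unadjusted p under 0.05 and more than 1 log2 unit, the lycophyte had 0 list features higher and 0 lower. Among all its loci, 1.14% were higher and 0.0178% lower. By the same rule the fern had 2 of 125 list features higher and 4 lower, beside 2.44% and 1.19% of all its transcripts. The smallest limma FDR values of list features were 0.103, 0.0605 and 0.233 in the lycophyte, the horsetail and the fern. Median log2FC values over the lists were 0.07, -0.12, 0.09, -0.10 and -0.11 from *M. polymorpha* to *P. vittata*.

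Of the 3 called list features, 2 were ferredoxins, the proteins that pass electrons to the desaturase. Mapoly3477s0001.1 (best hit FD2) rose from 206 ± 73.3 to 511 ± 26.8 CPM (SD, n = 2), with a log2FC of 1.35 (SE 0.21) and a limma FDR of 0.0050. It was not called without the variance trend (limma FDR 0.017) or without air replicate 2 (log2FC 0.98). Mapoly0082s0023.1, the other liverwort transcript with best hit FD2 and named for comparison, was more abundant. It had 1492 ± 144 CPM in air and 1846 ± 20.8 CPM under hypoxia (SD, n = 2), and was not called (log2FC 0.31, limma FDR 0.205). Pp3c17_18910 (best hit FD2) rose from 2.07 ± 0.270 to 16.3 ± 1.58 CPM (SD, n = 2), with a log2FC of 2.50 (SE 0.14) and a limma FDR of 0.0014, and it was not called once any library was left out. The electron donor list of *P. patens* had a median log2FC of -0.41 over its 11 features, against the direction of this ferredoxin, and its summed CPM were 534 to 549 in air and 451 to 453 under hypoxia. Mapoly0034s0071.1 (best hit FAD4, a plastid desaturase of phosphatidylglycerol) rose from 6.12 ± 0.998 to 16.2 ± 0.262 CPM (SD, n = 2), with a log2FC of 1.28 (SE 0.15) and a limma FDR of 0.0017. This transcript was not called with a pseudocount of 5 CPM (log2FC 0.93), nor without air replicate 1 (limma FDR 0.0168) or air replicate 2 (limma FDR 0.0111).

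Where no list feature was called, the most expressed feature of the electron donor and stearoyl-ACP use lists was named. These features were picked by level and do not show the largest differences. In the fern, 3 of 125 list features were raised past the log2FC threshold and 5 were reduced past it, with libraries that did not overlap. No list feature of the lycophyte or the horsetail met this rule. In *S. moellendorffii*, 141243 (best hit LACS9, a long-chain acyl-CoA synthetase) had a log2FC of 0.25 (limma FDR 0.214), and 25109 (best hit LFNR1, a leaf ferredoxin-NADP reductase) had -0.04 (limma FDR 0.847). In *E. hyemale*, Ehym_DN104354_c0_g1 (best hit LACS9) had a log2FC of -0.24 (limma FDR 0.384) and Ehym_DN111153_c2_g3 (best hit LFNR1) had -0.42 (limma FDR 0.095). The summed electron donors of *E. hyemale* were 2374 to 2487 CPM in air and 1825 to 1904 CPM under hypoxia, a difference that no single gene carried past the threshold. In *P. vittata*, TRINITY_DN34978_c0_g1_i1 (best hit ATS1, a plastid glycerol-3-phosphate acyltransferase) had a log2FC of -0.27 (limma FDR 0.632), and TRINITY_DN26410_c0_g1_i1 (best hit FD1) had -0.11 (limma FDR 0.885). Medians of the fatty acid synthase list were 0.14, -0.14, 0.04, -0.07 and -0.0085 from *M. polymorpha* to *P. vittata*, beside desaturase medians of 0.85, 0.07, 0.45, 0.15 and 0.61. The desaturases were chosen for their response in these libraries, so this contrast is not evidence that they stand out. Acyl carrier proteins were found as best hits in all species but *E. hyemale*, and their summed CPM in *P. patens* were 142 to 168 in air and 109 under hypoxia.

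**Figure D4:**
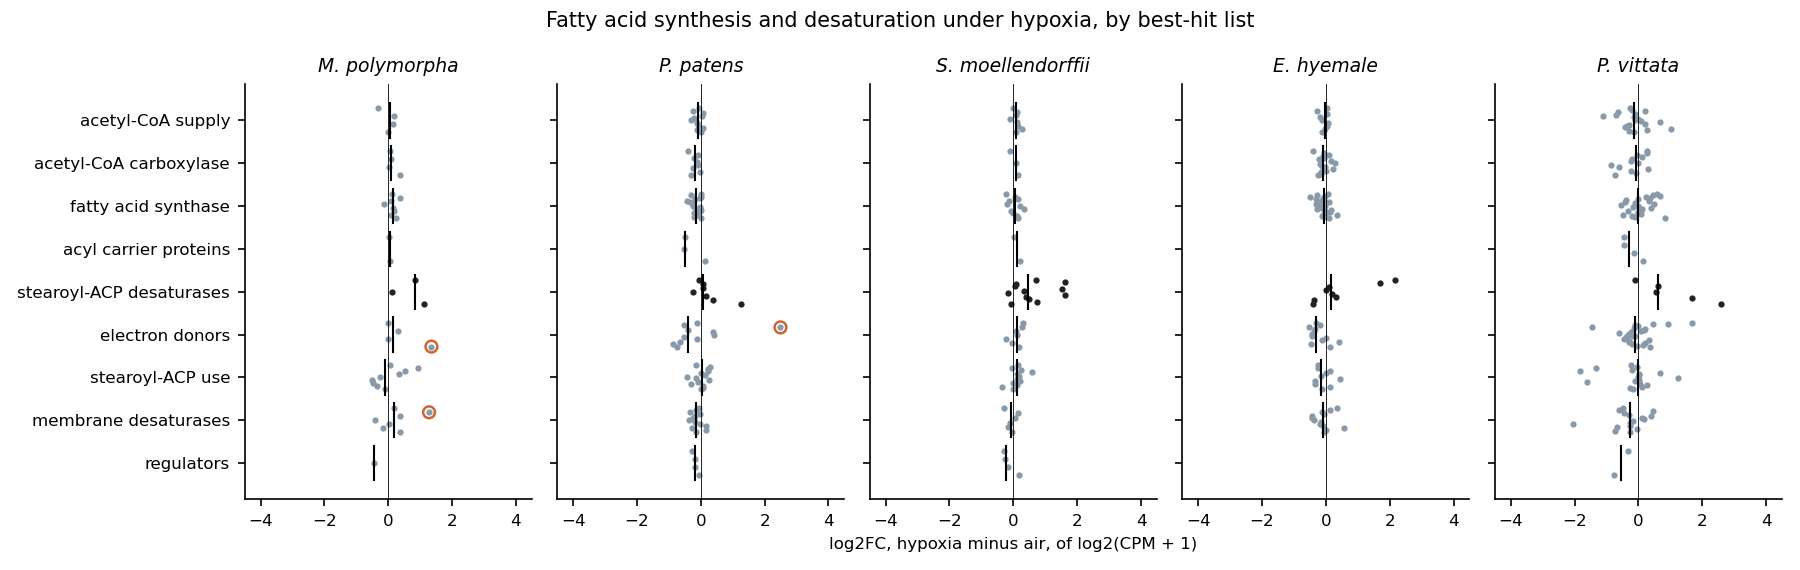
The log2FC of each list feature (grey points) and of the stearoyl-ACP desaturases (black points) by species, with vertical bars at the median of each group and orange rings around the 3 list features called by limma. The highest desaturase of each species reaches a log2FC of 1.12 to 2.60, but the family was chosen for its response. Most desaturases, like most points of the other lists, lie within 1 log2 unit of 0.

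The genes whose pattern over the 5 species lay closest to the summed family were looked up among 2886 best-hit groups with at least 5 CPM in every species. Closeness was the root mean square difference of the 5 log2FC values, with a median of 0.868 over all groups. The closest was AT5G34940 (glucuronidase 3) at 0.467, with log2FC values of 0.99, 0.24, -0.05, 0.06 and 0.65 from *M. polymorpha* to *P. vittata*. AT2G30490 (cinnamate-4-hydroxylase, an early enzyme of the phenylpropanoid pathway) followed at 0.50, and AT3G62720 (xylosyltransferase 1, an enzyme of xyloglucan synthesis) at 0.506. None of the 3 had a log2FC as high as that of the summed desaturases in the liverwort, the moss, the lycophyte or the fern. In the horsetail AT3G62720 had a log2FC of 0.33, against 0.31 for the summed family. Because the family was chosen for its response in these libraries, these differences are a description and not evidence.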

How the data were processed

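Libraries were prepared by the authors as stranded poly(A) mRNA libraries. The authors trimmed the reads and pseudo-aligned them with Kallisto, using Trinity assemblies (*k*-mer size 31) for the horsetail and the fern and reference transcriptomes for the other species. With edgeR, the authors scaled libraries by TMM factors, after dropping loci without any library above 20 reads, and deposited log2 CPM per library. Tool versions are not given in the sources used here. Other deposited values were the *E. hyemale* log2 CPM columns, in which 0 CPM stands as an error text, the average log2 CPM of that table, and E-values of the best hits. The deposited log2 fold changes and FDR values are the authors' own comparison and were not used.

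The per-library rows of *E. hyemale* were deposited in another order than the identifiers. Sorting the identifiers restored it: the correlation with the authors' average log2 CPM over 55254 genes was 0.0099 as deposited and 0.999999 after sorting. From liverwort to fern, 77.3%, 80.7%, 86.1%, 38.2% and 44.7% of features had a best hit. CPM summed to between 969918 and 1031730 per library. Only 41.4 to 83.3% of low values were whole reads to within 0.1 read, so no model for counts was fitted.

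Species by species, limma 3.58.1 (R 4.3.3) compared the conditions on log2(CPM + 1), with a variance trend, two-sided, and Benjamini-Hochberg adjustment over all features of the table (FDR). Features were called (DEGs) where the log2FC passed 1 in either direction at an FDR of at most 0.01. A second rule asked for the same size of change and for libraries that do not overlap. A p-value sets the difference between conditions against the variance between libraries of 3 plants each, which limma moderates with that of all features. The fitting code was run on values simulated with independent normal noise, which does not test how the fits hold for these libraries. Tables and plots were made in Python 3.11.15 with pandas 2.3.3, numpy 2.4.6 and matplotlib 3.10.9.

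The members, the gene lists and the tests were chosen with earlier results of these data known. Members with a mean of at least 5 CPM were named, together with the highest and the lowest log2FC among those of at least 1 CPM. Of the lists, the called features were named (at most 3 each way per list), or, where none was called, the most expressed feature of the electron donor and stearoyl-ACP use lists. The 3 best-hit groups closest to the summed family were named as well. Alternatives were pseudocounts of 0.1 and 5 CPM, no variance trend, an FDR under 0.05, a filter of 1 CPM, rescaling to library totals, summed Trinity transcripts, a replicate block and leaving out each library. The main fits did not pair libraries by replicate number, and whether equal numbers mark pairs was not settled.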

Additional observations from a re-analysis of the deposited data

How the results depend on the processing

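The 9 members above 1 log2 unit kept their direction in 90 of 90 fits, with log2FC values of 0.95 to 3.45. Because these members were picked by their log2FC in the same libraries, the kept direction is a description and not evidence. Dropping the variance trend, filtering at 1 CPM or adding a replicate block leaves a log2FC unchanged by design. Both calls of *E. hyemale* members held without any 1 library, while calls in the liverwort, the moss and the lycophyte changed with the library left out. When 1 library was left out, members called higher ranged from 0 to 1 in *M. polymorpha* and from 0 to 3 in *S. moellendorffii*, with 3 without air replicate 3, and list features called higher ranged from 0 to 3 in *M. polymorpha*. In *P. patens*, 0 members and 0 list features were called whichever library was left out. Without a variance trend, 0 members and 0 list features were called in *P. patens* and 1 list feature in *M. polymorpha*, where a pseudocount of 5 CPM also left 1. The cause was not tested. With library totals the summed log2FC of *P. patens* was 0.47. Members below 1 CPM rest on few reads, since 1 read is up to 0.0615 CPM.

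Across genes, libraries of the same replicate number had low or negative correlations of their deviations. These were 0.031 in *M. polymorpha*, 0.061 in *P. vittata* and -0.276 to -0.075 in *E. hyemale*. Such values do not exclude a batch shared by libraries of the same number. With a replicate block, 1 member was called higher in *M. polymorpha*, 2 in *E. hyemale* and 0 in *P. vittata*, as without it. In *P. patens* and *S. moellendorffii* air and hypoxia columns shared fewer than 2 numbers, so no block was fitted.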
